A study of Homo sapiens with 8 samples.

Results

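The genes described here are 10 members of the BCL2 family of apoptosis regulators, BCL2, MCL1, BCL2L1, BCL2A1, BCL2L11, BBC3, PMAIP1, BID, BAX and BAK1. They were picked by symbol, after the Ensembl identifiers of the count table had been matched to symbols, and all 10 were found among 63140 genes. Apoptosis of the intrinsic pathway is decided at the outer mitochondrial membrane. The anti-apoptotic members BCL2, MCL1, BCL2L1 (BCL-XL) and BCL2A1 (BFL1) bind and hold back their pro-apoptotic relatives. The BH3-only members BCL2L11 (BIM), BBC3 (PUMA), PMAIP1 (NOXA) and BID respond to stress and occupy the anti-apoptotic proteins or act on the effectors. The effectors BAX and BAK1 form the pores through which cytochrome c leaves mitochondria. Acute myeloid leukaemia cells commonly depend on BCL2 and MCL1, which is why inhibitors of these proteins are used or studied in this disease.

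The libraries hold RNA from ChIRP (chromatin isolation by RNA purification), a pull-down in which fixed, sonicated lysate is hybridised with biotinylated probes and the bound RNA is sequenced. The sample titles name the cells as MOLM13 and OCI-AML4, established acute myeloid leukaemia lines, taken 3 days after nucleofection. Cas9 ribonucleoprotein, which cuts DNA, was used for the groups named KO, while the groups named CBE received a base editor for cytosines, an enzyme that makes C-to-T changes with no intended double-strand break. The design compared the long non-coding RNA HOTSCRAMBL as target with AAVS1, a control site. The 4 groups were AAVS1 KO and AAVS1 CBE, whose genotype is labelled WT, and HOTSCRAMBL KO and HOTSCRAMBL CBE, whose genotype is labelled by the edit. Each group held 2 libraries, replicate 1 labelled MOLM13 and replicate 2 labelled OCI-AML4, and every group had been nucleofected. The label field for the line gives only Leukemia, so the line names come from the sample titles. The edited cells were not described as clones, and editing efficiency and the target of the probes are not given in the sources used here. The level of HOTSCRAMBL itself is not analysed here. A value is therefore an amount of RNA in a pull-down, with no input library used here, and less transcript and less recovery cannot be told apart, nor can fewer cells of a kind and less RNA per cell.

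Total counts ran from 20548300 to 37970163 per library, and between 21945 and 26083 genes were detected. Genes were compared with edgeR's quasi-likelihood test across 24057 genes, and "passed" means a Benjamini-Hochberg adjusted p under 0.05 over all of them. Levels are given as CPM, counts scaled to library totals after TMM adjustment. No reference library was at hand to check the line labels, between which 0.495% of all genes passed. That is a small share, and whether the labelled lines were truly different was not tested. Ribosomal protein genes took 1.32% to 1.59% of counts in the 4 AAVS1 libraries and 3.2% to 4.46% in the 4 HOTSCRAMBL libraries, and mitochondrially encoded genes 6.77% to 7.23% and 10.2% to 11.9%. Of 8 leukocyte and myeloid markers, all 8 were detected. Their summed level was 1040.4 to 1119.2 CPM in AAVS1 KO, AAVS1 CBE and HOTSCRAMBL CBE, and 1351.9 to 1555.3 CPM in HOTSCRAMBL KO, where LYZ and CSF1R passed as higher (log2 fold changes 2.20 and 0.69). LYZ alone went from 130.5 CPM on average in AAVS1 KO to 604.0 CPM in HOTSCRAMBL KO, a larger difference than that of the summed level. PTPRC passed as higher with CBE (0.67). MPO, ITGAM and CD33 did not pass with either edit (−0.74, −0.84 and −0.32 with KO, −0.71, −0.91 and −0.33 with CBE), and passed as lower in the average of both edits (−0.73, −0.87 and −0.33). FLT3 and SPI1 did not pass (−0.32 and −0.09 with KO, 0.17 and 0.04 with CBE), nor did CSF1R (−0.53) and LYZ (0.23) with CBE. The 4 T cell markers summed to at most 2.35 CPM, with CD3E and CD2 at 0 throughout, and the 5 erythroid markers to at most 1.66 CPM, with HBB and HBA2 at 0. The 5 mesenchymal markers summed to at most 1.02 CPM, with COL3A1 and LUM at 0, and the 4 B cell markers to at most 11.4 CPM. The 4 epithelial markers summed to 0.134 and 0.357 CPM in HOTSCRAMBL KO and to between 2.6 and 5.4 CPM in the other 6 libraries. The part of these shares and markers in the results on the BCL2 family was not tested, except where a value without ribosomal protein and mitochondrial genes is given.

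Levels were first ordered per length, as CPM per kb of annotated exon. This order depends on the exon lengths, such as 12612 bases for BCL2 and 3185 for BBC3. In CPM, BCL2 stood above BBC3 in every library. Per kb, BBC3 was the highest of the 10 genes in every library, with 70.1 to 221.6 CPM per kb. In the AAVS1 libraries it was followed by BCL2 (56.5 to 63.9), MCL1 (46 to 54.4), BAX (26.1 to 40.6) and PMAIP1 (18.3 to 26.6 CPM per kb). BID, BCL2L11 and BAK1 followed, between 4.12 and 8.89 CPM per kb, then BCL2L1 with 1.16 to 3.09. BCL2A1 was last in all 8 libraries, at no more than 2.62 CPM per kb. Neighbours in this order did not overlap within either AAVS1 group, except BID, BCL2L11 and BAK1 in AAVS1 KO, and BAX and PMAIP1 in AAVS1 CBE. In HOTSCRAMBL KO the order differed. PMAIP1 stood next to BBC3 with 83.1 and 93.1 CPM per kb, above BCL2 with 43.2 and 42.4, and values overlapped between BAX and MCL1, BCL2L11 and BID, and BCL2L1 and BCL2A1. In HOTSCRAMBL CBE the 5 highest genes kept the order of the AAVS1 libraries, and BCL2L11 overlapped with BAK1 and with BID.

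**Figure D1:**
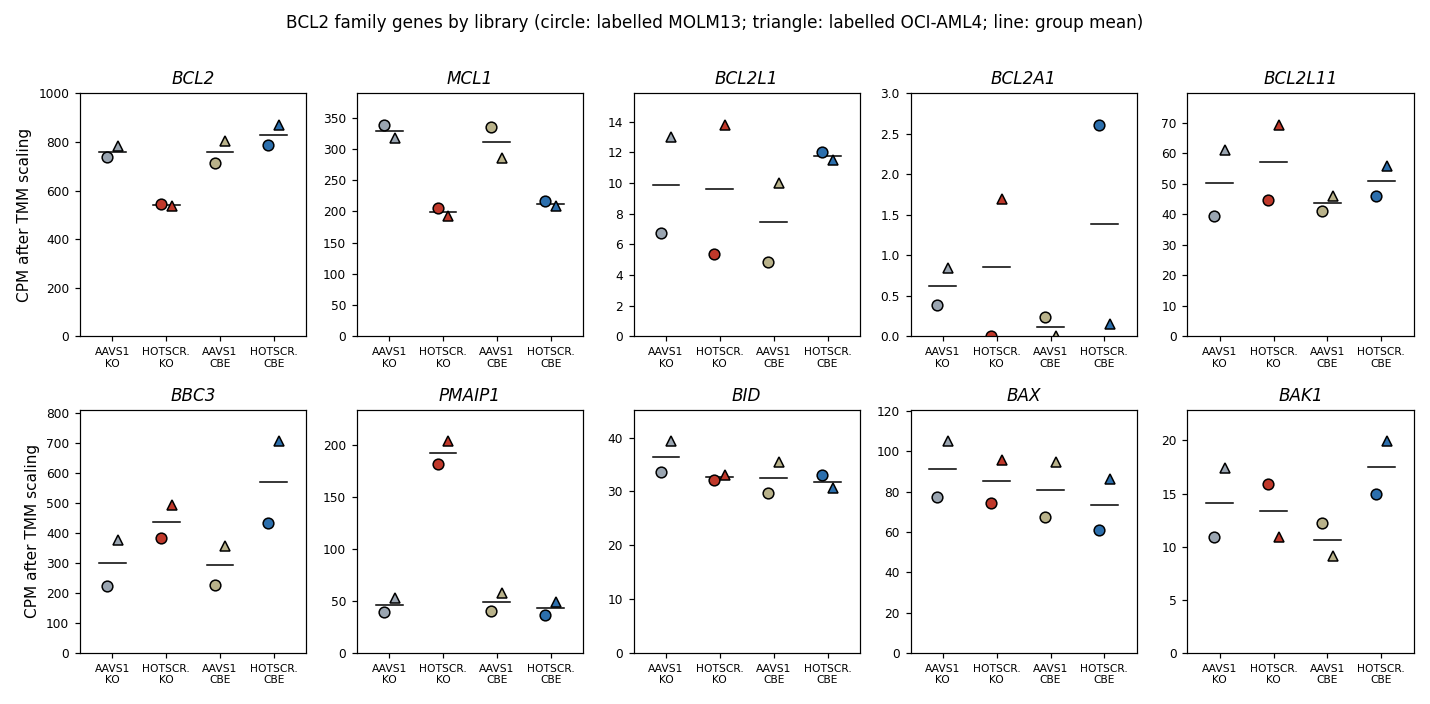
Level of each BCL2 family gene in each library (y axis, CPM after TMM scaling, starting at 0; x axis, the 4 groups, with HOTSCRAMBL shortened to HOTSCR.). Circles are libraries labelled MOLM13, triangles those labelled OCI-AML4, and lines are group means; PMAIP1 stands at 181.7 and 203.5 CPM in HOTSCRAMBL KO and at no more than 58.2 CPM in the other 6 libraries.

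With knockout of HOTSCRAMBL by Cas9, the BH3-only genes PMAIP1 and BBC3 rose and the anti-apoptotic genes MCL1 and BCL2 fell, while the effectors did not pass. This is 4 of 10 members, against 8.76% of all genes tested (4.51% higher and 4.25% lower). Of all calls 51.5% were higher, and 33.1% without TMM. By role, 2 of 4 BH3-only members passed as higher, 2 of 4 anti-apoptotic members as lower, and 0 of 2 effectors (0 also at an unadjusted p under 0.05, which 20.1% of all genes reached, and 0 with DESeq2). The median log2 fold change of the 10 members was −0.06, beside −0.01 for all genes.

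PMAIP1 encodes NOXA, which binds MCL1 with preference and promotes its turnover. The gene (ENSG00000141682) lies on chromosome 18 at 59899996 to 59904305 on the plus strand of GRCh38, and no exon of another gene overlaps it. Its level was 39.9 and 52.5 CPM in the AAVS1 KO libraries labelled MOLM13 and OCI-AML4, and 181.7 and 203.5 CPM in those of HOTSCRAMBL KO. Both knockout libraries thus lay far above both controls, with group means of 46.2 ± 8.92 and 192.6 ± 15.4 CPM (SD, n = 2), a 4.17-fold difference. The log2 fold change was 2.06 (standard error 0.172, adjusted p 1.58e-09 in edgeR). PMAIP1 passed under each of the 18 alternatives tried, with log2 fold changes from 1.90 to 2.21, and 2.08 when scaling left out ribosomal protein and mitochondrial genes.

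The stretch before the start of PMAIP1 is shown because this gene had the largest change among the members that passed, beside those of BBC3, which rose with both editors, and BAX, which passed with neither. The sequences are from RefSeq (GRCh38.p14), written 5′ to 3′ in the direction of the gene and limited to bases outside annotated exons. Capitals mark matches, on either strand, to TGACG (the core of cyclic AMP response elements, which ATF family factors bind), CACGTG (an E-box, bound by MYC and related factors) and GGGCGG (a GC box, bound by SP1).
PMAIP1, chr18:59899746-59899995, plus strand: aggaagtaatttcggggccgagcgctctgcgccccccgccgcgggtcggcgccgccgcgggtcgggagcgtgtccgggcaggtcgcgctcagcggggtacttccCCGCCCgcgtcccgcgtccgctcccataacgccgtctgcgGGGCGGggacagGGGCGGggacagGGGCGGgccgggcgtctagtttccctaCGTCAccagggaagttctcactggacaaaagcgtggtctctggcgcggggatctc
BBC3, chr19:47232767-47232917, minus strand: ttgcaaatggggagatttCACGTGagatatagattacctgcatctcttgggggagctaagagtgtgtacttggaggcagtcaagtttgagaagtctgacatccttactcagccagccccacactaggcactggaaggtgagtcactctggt
BAX, chr19:48954625-48954814, plus strand: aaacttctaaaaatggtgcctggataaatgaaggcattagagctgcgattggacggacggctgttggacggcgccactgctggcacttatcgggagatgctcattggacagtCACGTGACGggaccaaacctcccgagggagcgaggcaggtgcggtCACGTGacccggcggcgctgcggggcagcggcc
The PMAIP1 stretch held 1 match to TGACG, read there on the other strand, and 4 to GGGCGG, and the BBC3 stretch held 1 to CACGTG. In the BAX stretch the first CACGTG and the match to TGACG share letters. TGACG occurred in 21.2%, CACGTG in 6.34% and GGGCGG in 42.6% of 35116 RefSeq windows covering the 250 bases before a gene's start. The printed BBC3 and BAX stretches are shorter, with 151 and 190 bases. The full BAX window held 4 matches to CACGTG and 1 to GGGCGG. Also sought were TGACGTCA, TATAAA, TGATTNAT, the C/EBP-ATF composite TGATGNAA and the p53 half-site RRRCWWGYYY (N, R, W and Y stand for sets of bases). The full windows of PMAIP1, BBC3 and BAX held 0 matches to each of these. Matches were not particular to PMAIP1. GGGCGG had 3 in the window of BCL2L11 and 4 in a window of BID, and TGACG had 1 each in windows of BCL2 and BCL2L1. A match is a description of letters, and binding was not measured.

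BBC3 encodes PUMA, a BH3-only protein that binds all anti-apoptotic members and a well-known p53 target. The gene (ENSG00000105327) lies on chromosome 19 at 47220822 to 47232766 on the minus strand, and 2.51% of its exon bases are shared with the microRNA genes MIR3190 and MIR3191. Its level was 223.3 and 378.1 CPM in AAVS1 KO and 382.3 and 493.1 CPM in HOTSCRAMBL KO. The groups did not overlap, but the control labelled OCI-AML4 nearly reached the knockout library labelled MOLM13. Group means were 300.7 ± 109.4 and 437.7 ± 78.3 CPM (SD, n = 2), and the log2 fold change was 0.57 (standard error 0.111, adjusted p 9.20e-04 in edgeR). Without the term for the line label, the replicate block, the log2 fold change was 0.54 with an edgeR adjusted p of 0.567, the highest of a range that began at 7.85e-07 over the 18 alternatives. The call also ended without AAVS1 KO replicate 1 (edgeR adjusted p 0.109), without HOTSCRAMBL KO replicate 1 (0.096) and with only the 4 libraries of the contrast (0.0564).

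MCL1, whose short-lived protein holds back BAK1 and BIM, was lower in both knockout libraries. The gene (ENSG00000143384) lies on chromosome 1 at 150560895 to 150579738 on the minus strand, with 5.27% of its exon bases shared with ADAMTSL4 and ADAMTSL4-AS1. It stood at 338.8 and 318.3 CPM in AAVS1 KO and at 205.3 and 192.7 CPM in HOTSCRAMBL KO. The log2 fold change was −0.72 (standard error 0.116, adjusted p 8.07e-05 in edgeR), and the log2 ratio was −0.72 in each pair of libraries. MCL1 passed as lower under each of the 18 alternatives, with values from −0.88 to −0.69.

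BCL2, the founding anti-apoptotic member and the target of venetoclax, lies on chromosome 18 at 63123346 to 63320128 on the minus strand (ENSG00000171791), and no exon of another gene overlaps it. It stood at 739.7 and 781.2 CPM in AAVS1 KO and at 544.3 and 534.7 CPM in HOTSCRAMBL KO, so that both knockout libraries were below both controls. The log2 fold change was −0.49 (standard error 0.0919, adjusted p 5.22e-04 in edgeR). The call ended only without AAVS1 KO replicate 1, where the log2 fold change was −0.47 and the edgeR adjusted p 0.0554, the highest of a range that began at 8.62e-10. Leaving out that library left 2 of the 4 members that passed, PMAIP1 and MCL1.

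The other 6 members did not pass with knockout. In GRCh38, BID (ENSG00000015475) lies at chr22:17734138-17774770, BCL2L11 (ENSG00000153094) at chr2:111119378-111168444 and BAX (ENSG00000087088) at chr19:48954815-48961798. BAK1 (ENSG00000030110) lies at chr6:33572547-33580293, BCL2L1 (ENSG00000171552) at chr20:31664452-31723989 and BCL2A1 (ENSG00000140379) at chr15:79960892-79971196. BCL2L11 shares 11.4% of its exon bases with other genes, MIR4435-2HG among them, and BAK1 4.11%. BID, which links death receptors to mitochondria after caspase cleavage, stood at 33.6 and 39.3 CPM in AAVS1 KO and at 32.2 and 33.1 CPM in HOTSCRAMBL KO, without overlap but with a log2 fold change of −0.16 (standard error 0.26, adjusted p 0.789 in edgeR). BCL2L11, a strong activator of the effectors, stood at 39.5 and 61 CPM against 44.7 and 69.4 CPM, and the libraries of each line label differed by 0.18 and 0.19 on the log2 scale. The effector BAX stood at 77.2 and 105.0 CPM against 74.5 and 95.9 CPM (log2 fold change −0.10, standard error 0.169, adjusted p 0.806 in edgeR). BAK1, the other effector, had control and knockout values that overlapped, 10.9 and 17.4 CPM against 15.9 and 10.9 CPM. BCL2L1 overlapped as well, at 6.74 and 13 CPM against 5.36 and 13.8 CPM, and 41.3% of its exon bases are shared with ABALON on the other strand. BCL2A1 was near the limit of detection, with 10 and 21 counts in AAVS1 KO and 0 and 38 counts in HOTSCRAMBL KO. A floor of 3 counts corresponded to 0.153 CPM in the library at 0, and such floors cover counting error only. In all, the values of 5 of 10 members did not overlap between the groups, 3 lower and 2 higher, beside 44.8% of all genes tested (23.8% lower and 21.0% higher).

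**Figure D2:**
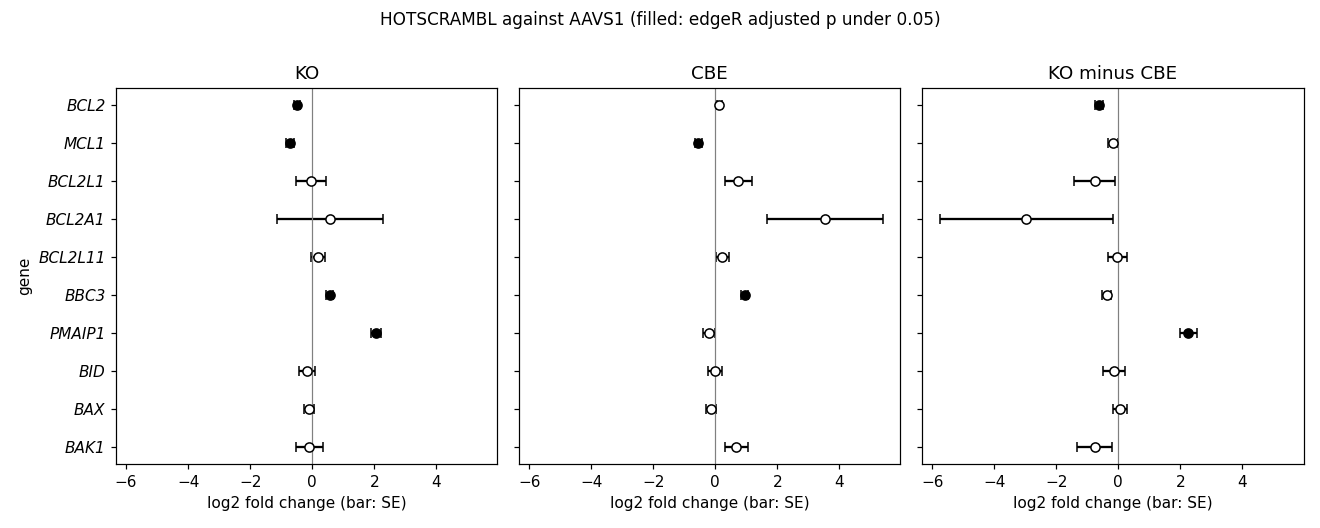
Log2 fold change of each BCL2 family gene for HOTSCRAMBL against AAVS1 with KO, with CBE, and the difference KO minus CBE (x axis; bars are standard errors; y axis, genes). Filled points passed at an edgeR adjusted p under 0.05, and PMAIP1 lies at 2.06 with KO and at −0.20 with CBE.

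With cytosine base editing at HOTSCRAMBL, BBC3 rose and MCL1 fell, and PMAIP1 and BCL2 did not pass. This is 2 of 10 members, against 8.83% of all genes tested (4.56% higher and 4.27% lower). Of all calls 51.6% were higher, and 32.6% without TMM. An unadjusted p under 0.05 was reached by the same 2 members and by 20.1% of all genes. By role, 1 of 4 BH3-only members passed as higher and 1 of 4 anti-apoptotic members as lower. The median log2 fold change was 0.17 for the 10 members and −0.02 for all genes.

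BBC3 stood at 228.3 and 357.9 CPM in AAVS1 CBE and at 432.4 and 705.9 CPM in HOTSCRAMBL CBE. Both edited libraries lay above both controls, and the log2 ratios within the line labels were 0.92 and 0.98. Group means were 293.1 ± 91.6 and 569.2 ± 193.4 CPM (SD, n = 2), a 1.94-fold difference, with a log2 fold change of 0.95 (standard error 0.107, adjusted p 5.11e-07 in edgeR). The call ended only without the replicate block, at a log2 fold change of 0.96 and an edgeR adjusted p of 0.308. The edgeR adjusted p was as low as 6.72e-21 among the 18 alternatives.

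MCL1 stood at 335.0 and 286.2 CPM in AAVS1 CBE and at 215.9 and 208.7 CPM in HOTSCRAMBL CBE, again without overlap. Its log2 fold change was −0.55 (standard error 0.111, adjusted p 0.00132 in edgeR). The call ended without AAVS1 CBE replicate 1 (log2 fold change −0.47, edgeR adjusted p 0.117), without HOTSCRAMBL CBE replicate 1 (−0.50, 0.0931) and with only the 4 libraries of the contrast (−0.55, 0.0617), in a range that began at 4.82e-09.

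PMAIP1 stood at 40.4 and 58.2 CPM in AAVS1 CBE and at 37 and 48.9 CPM in HOTSCRAMBL CBE. These values overlapped, and the log2 fold change was −0.20 (standard error 0.194, adjusted p 0.633 in edgeR). BCL2 overlapped too, at 712.2 and 805.7 CPM against 786.2 and 870.6 CPM, with a log2 fold change of 0.13 (standard error 0.0887, adjusted p 0.467 in edgeR). Its sign depended on scaling, since it was −0.01 without TMM.

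Of the members left, BCL2L1 and BAK1 had both base-edited libraries above both controls without passing. BCL2L1 stood at 4.86 and 10 CPM in the controls and at 12 and 11.5 CPM in the edited libraries (log2 fold change 0.74, standard error 0.438, adjusted p 0.369 in edgeR). BAK1 stood at 12.2 and 9.11 CPM against 15 and 19.9 CPM (log2 fold change 0.67, standard error 0.371, adjusted p 0.334 in edgeR). The table also lists the copies BAK1P1 and BAK1P2, and reads shared with them may not have been counted for BAK1. BCL2L11, BID and BAX had overlapping values and log2 fold changes of 0.22, −0.01 and −0.14. BCL2A1 had 8 and 0 counts in the controls (floor 0.106 CPM) and 94 and 4 counts after base editing, so that a single library held nearly all of its counts. Its fitted log2 fold change of 3.54 (standard error 1.87, adjusted p 0.297 in edgeR) is no bound. Values of 4 of 10 members did not overlap between the groups, 3 higher and 1 lower, beside 46.4% of all genes tested (22.7% higher and 23.7% lower).

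The effects of both edits were then compared directly. Of the 10 members, 2 differed, PMAIP1 and BCL2, against 3.19% of all genes tested (1.74% higher and 1.45% lower). The effect of KO on PMAIP1 exceeded that of CBE by 2.26 on the log2 scale (standard error 0.261, adjusted p 3.09e-06 in edgeR), and this call remained under each of 17 alternatives. For BCL2 the difference was −0.62 (standard error 0.128, adjusted p 0.00439 in edgeR). It lost its call under 6 of 17 alternatives. These were the fit without the replicate block (edgeR adjusted p 0.0519) and those without AAVS1 KO replicate 1 (0.107), AAVS1 KO replicate 2 (0.0832), HOTSCRAMBL KO replicate 2 (0.0667), AAVS1 CBE replicate 1 (0.103) or HOTSCRAMBL CBE replicate 2 (0.0502). The lowest edgeR adjusted p over the alternatives was 5.61e-09. MCL1 and BBC3 were not shown to differ between the edits, with differences of −0.17 (standard error 0.161, adjusted p 0.696 in edgeR) and −0.38 (standard error 0.154, adjusted p 0.23 in edgeR). The BBC3 difference passed with limma-voom (adjusted p 0.0217, over a range up to 0.844).

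Averaged over both edits, 3 of 10 members passed, against 12.3% of all genes tested (5.79% higher and 6.51% lower). Of all calls 47.1% were higher, and 27.6% without TMM. BBC3 rose by 0.76 (standard error 0.0772, adjusted p 4.54e-08 in edgeR) and PMAIP1 by 0.93 (standard error 0.131, adjusted p 8.25e-06 in edgeR), the latter an average of unlike effects. MCL1 fell, at −0.64 (standard error 0.0802, adjusted p 1.54e-06 in edgeR). BCL2 missed the threshold at −0.18 (adjusted p 0.0598 in edgeR), and passed without TMM, with DESeq2 and with limma-voom, over a range of adjusted p from 4.75e-04 to 0.297. BBC3 lost its call without the replicate block (edgeR adjusted p 0.225, in a range from 5.71e-22). This average and the difference above use the same libraries as the separate comparisons.

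The control groups were both edited at AAVS1, so they compare the editors at the control site and hold no unedited library. Between AAVS1 KO and AAVS1 CBE, 0 of 10 members passed in edgeR, 0 had an unadjusted p under 0.05, and 0 passed in DESeq2, beside 0% of all genes in edgeR and 3.82% at an unadjusted p under 0.05. BCL2 and BBC3 differed there by 0.00 and 0.03 on the log2 scale, MCL1 by 0.08 and PMAIP1 by −0.09. Between the line labels 1 of 10 members passed (all genes 0.237% higher and 0.258% lower), BBC3, which was lower under the MOLM13 label in each of the 4 groups (log2 fold change −0.62, standard error 0.0771, adjusted p 3.58e-05 in edgeR). BAX missed the threshold at −0.45 (adjusted p 0.0948 in edgeR). An unadjusted p under 0.05 was reached by 5 of 10 members (BBC3, BAX, BCL2L11, PMAIP1 and BCL2L1), beside 2210 of 24057 genes. The log2 fold change between labels was negative for 8 of 10 members, beside 12306 of all genes. Whether the effect of HOTSCRAMBL editing differed between line labels was tested as well. Of 10 members 0 passed in edgeR (0% of all genes), 0 at an unadjusted p under 0.05 (4.09% of all genes) and 0 in DESeq2, and the values for PMAIP1, BBC3, MCL1 and BCL2 were 0.22, 0.16, −0.09 and 0.06.

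Summed per length, the roles were distributed unequally across the libraries. The 4 anti-apoptotic genes summed to 111.7 to 117.0 CPM per kb in the AAVS1 libraries, 77.4 and 78.3 in HOTSCRAMBL KO and 102.5 and 105.5 in HOTSCRAMBL CBE. BH3-only genes summed to 101.6 and 102.8 CPM per kb in the AAVS1 libraries labelled MOLM13 and to 160.4 and 153.6 in those labelled OCI-AML4. Under the same labels the BH3-only sum was 216.9 and 265.3 in HOTSCRAMBL KO and 166.7 and 258.9 CPM per kb in HOTSCRAMBL CBE. The 2 effectors summed to between 30.3 and 48.4 CPM per kb in all 8 libraries. The ratio of BH3-only to anti-apoptotic sums was 0.883 and 0.92 in the AAVS1 libraries labelled MOLM13 and 1.37 in each labelled OCI-AML4. It was 2.80 and 3.39 in HOTSCRAMBL KO and 1.63 and 2.45 in HOTSCRAMBL CBE. The ratio was thus above both controls in every edited library. It rests largely on BBC3, BCL2, MCL1 and, with KO, PMAIP1, and was not tested, since these values are those of the genes above. Its size depends on the exon lengths used.

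**Figure D3:**
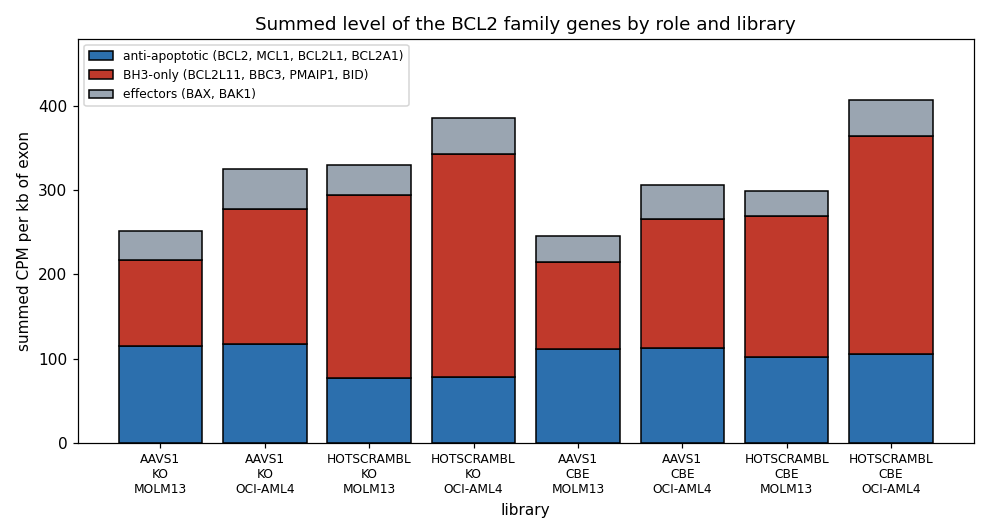
Summed level of the anti-apoptotic, BH3-only and effector genes in each library (y axis, CPM per kb of exon, stacked bars from 0; x axis, libraries by group and line label). The BH3-only part is 216.9 and 265.3 CPM per kb in HOTSCRAMBL KO and 101.6 to 160.4 in the AAVS1 libraries.

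For each member that passed with an edit, the gene with the most similar pattern of log2 CPM over the 8 libraries was looked up among 12020 genes at or above the median level. These similarities are descriptions over libraries that share groups, and carry no test. PMAIP1 was most like MT-ND4L, a mitochondrially encoded subunit of complex I (Pearson's r 0.992), which had log2 fold changes of 1.38 with KO and 0.02 with CBE. MCL1 was most like MAN2A2, an enzyme that trims N-glycans (r 0.99), with −0.81 and −0.72. BBC3 was most like HEBP2, a haem-binding protein (r 0.986), with 0.48 and 0.79. BCL2 was most like FHIP2A (r 0.976), with −0.99 and 0.14, neither of which passed.

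Other genes of the apoptosis pathways were read from a list of 47, of which 44 were tested. With KO 6 passed and with CBE 7, each of them as higher, where 8.76% and 8.83% of all genes passed (4.51% and 4.56% as higher). This direction depended on scaling and on the test used. Without TMM 3 passed as higher and 1 as lower (FBXW7) with KO, and 6 as higher and 2 as lower (CFLAR and TNFRSF10B) with CBE. FBXW7 also passed as lower with KO under DESeq2, limma-voom and edgeR's legacy dispersion. CFLAR passed as lower with CBE under DESeq2 (adjusted p 0.0165). FBXW7 and TNFRSF10B are named after their values were seen. The median log2 fold changes were 0.04 and 0.07. Among 11 tested relatives of the BCL2 family, 2 passed with KO and 3 with CBE. BIK, a BH3-only protein of the endoplasmic reticulum, stood at 23.6 and 56.8 CPM in AAVS1 KO and at 130.4 and 120.1 CPM in HOTSCRAMBL KO. Under CBE the controls stood at 32.8 and 50 CPM and the edited libraries at 78.4 and 89.7 CPM, so that the edited libraries were above the controls with both edits. Its log2 fold changes were 1.66 (standard error 0.23, adjusted p 1.00e-05 in edgeR) and 1.05 (standard error 0.222, adjusted p 0.0022 in edgeR). The mitophagy receptor BNIP3L passed with KO at 1.46 (0.95 without HOTSCRAMBL KO replicate 2, adjusted p 0.345 in edgeR, over a range from 5.67e-05), and lost its call in 4 of 18 alternatives. Its relative BNIP3 passed with CBE at 1.21. BCL2L13, another mitophagy receptor, passed with CBE at 0.76. None of these 4 genes was shown to differ between the edits (edgeR adjusted p from 0.0635 for BCL2L13 to 0.533 for BNIP3L). The BCL2L13 difference was −0.87, and it passed with DESeq2 (adjusted p 0.00734) and with edgeR's legacy dispersion (adjusted p 0.0292).

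Downstream of the mitochondria, 1 of 11 genes of the apoptosome and caspase list passed with each edit. This was AIFM1, a flavoprotein of the intermembrane space, which rose with KO (0.77) and with CBE (1.09). Its call with KO (edgeR adjusted p 0.0219) was lost in 6 of 18 alternatives. The call with CBE (edgeR adjusted p 1.78e-04) was lost in 2 of 18. Of 4 tested caspase inhibitors, BIRC5 (survivin, a mitotic protein as well) passed with CBE at 1.00, and stood at 0.28 with KO (adjusted p 0.669 in edgeR). In the death receptor pathway 2 of 10 genes passed with KO and 1 with CBE. RIPK1, the kinase at the branch between survival and necroptosis, stood at 125.9 and 121.4 CPM in AAVS1 KO and at 254.5 and 261.4 CPM in HOTSCRAMBL KO. With CBE it stood at 141.9 and 119.7 CPM in the controls and at 205.1 and 202.4 CPM in the edited libraries, with log2 fold changes of 1.06 and 0.64 (edgeR adjusted p 1.74e-06 and 0.00115). CFLAR, the inhibitor of caspase 8 known as c-FLIP, was the 1 gene of the list that differed between the edits, by 0.80 (standard error 0.164, adjusted p 0.00429 in edgeR). It stood at 262.0 and 265.5 CPM against 350.2 and 389.3 CPM with KO and at 281.4 and 275.9 CPM against 243.2 and 204.4 CPM with CBE. The edited libraries were thus above the controls with KO (log2 fold change 0.49) and below them with CBE (−0.31, edgeR adjusted p 0.102).

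Among 8 regulators of the members, ATF4, the transcription factor of the integrated stress response, passed with KO at 0.49. This call was lost in 5 of 18 alternatives. With CBE ATF4 stood at 0.31 (adjusted p 0.0862 in edgeR), and passed with DESeq2 (adjusted p 0.0341) and limma-voom (adjusted p 0.0189). Its effect was not shown to differ between the edits (difference 0.18, adjusted p 0.688 in edgeR). HUWE1, a ubiquitin ligase of MCL1, passed with CBE at 0.29. It lost its call in 9 of 18 alternatives and stood at 0.16 without TMM (adjusted p 0.312 in edgeR, over a range from 7.08e-07). Most calls in this list were less firm than that of PMAIP1 with KO. Of the 6 genes that passed with KO, BIK and RIPK1 passed under each of 18 alternatives, and of the 7 that passed with CBE 0 did. The number that passed was 2 without AAVS1 KO replicate 1 or replicate 2, 3 without HOTSCRAMBL KO replicate 2, 10 with DESeq2 (KO), and 1 without AAVS1 CBE replicate 1 or HOTSCRAMBL CBE replicate 1. It was 3 without AAVS1 CBE replicate 2 and 4 without HOTSCRAMBL CBE replicate 2. CFLAR lost its call between the edits when any 1 of 6 libraries was left out, over a range of edgeR adjusted p from 1.36e-06 to 0.108.

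**Figure D4:**
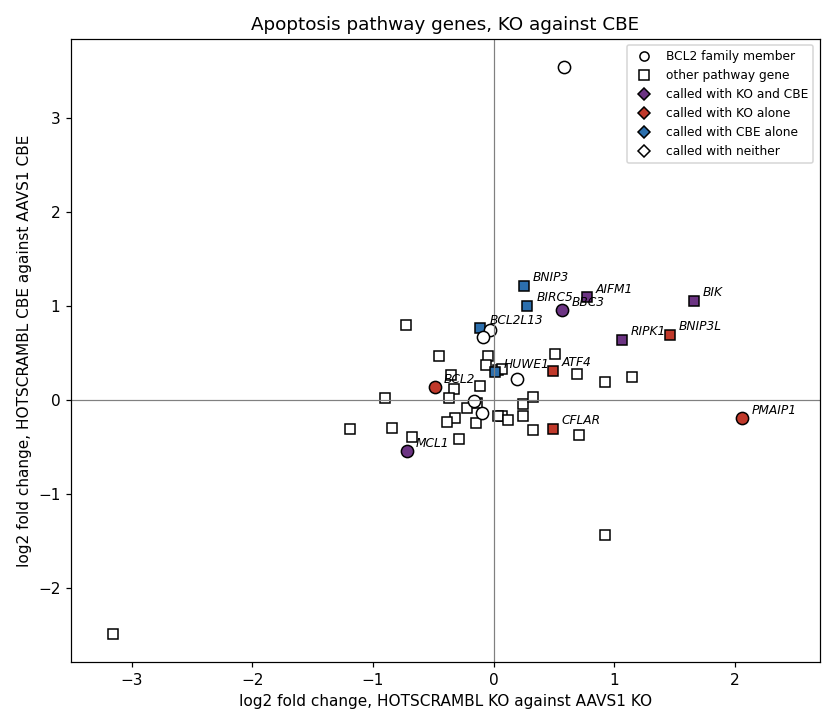
Log2 fold change with KO (x axis) against that with CBE (y axis) for the 10 BCL2 family members (circles) and 44 other apoptosis genes (squares). Colours show with which edit a gene passed; PMAIP1 lies far right at 2.06 and −0.20, BBC3 and BIK upper right, and MCL1 lower left at −0.72 and −0.55. The highest circle is BCL2A1, which did not pass.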

How the data were processed

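Counts per gene were deposited by the authors without normalisation, made by featureCounts 2.0.6 on Ensembl gene models (GRCh38), with no option for strand, per the file headers. Overlapping genes thus cannot be separated, and both reads of a pair appear to be counted (71.8% to 74.9% of values from 1 to 20 were even). Genes were tested in edgeR 4.0.16 (R 4.3.3; robust quasi-likelihood test, TMM, filterByExpr with a minimum count of 10) with terms for group and line label, which left 3 residual degrees of freedom. All 10 members passed the filter. BCL2A1 exceeded 10 counts in only 3 libraries. Pairing comes from the stated lines. Deviations of same-numbered libraries correlated at r from 0.00851 to 0.0245 over all genes tested and from 0.0413 to 0.117 over those above the median level. Separate cultures are not stated, so p-values measure the spread between these libraries. For each gene that spread was moderated towards that of the other genes, with 22.2 to 22.7 prior degrees of freedom. The p-values thus rest largely on spread shared over genes. In data simulated for the KO comparison over 24057 genes, 49 of 100 genes changed by 2 on the log2 scale and 14 of 100 changed by 1 were recovered. The changed genes were drawn at random from all genes tested, at any level. The common biological coefficient of variation was 0.708, while its median in the top 25% of genes by level was 0.155. Recovery at the levels of the members was not simulated. The deposited gene lengths gave CPM per kb. Alternatives used DESeq2 1.42.0 and limma 3.58.1 (voom), other scalings and filters, counts divided by 2, no line term, the 4 libraries of a contrast, each library left out and, chosen after seeing the data, edgeR's legacy dispersion. Members and lists were chosen with earlier results of these data known. All members were named, with the called list genes of smallest p (up to 6 per direction; HUWE1, the last with CBE, was named after its value was seen) and the gene most like each called member.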

Additional observations from a re-analysis of the deposited data

Results flagged for a closer look

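The effect of targeting HOTSCRAMBL on PMAIP1 differed between the edits by 2.26 on the log2 scale (KO minus CBE), by a direct test of the difference (edgeR adjusted p 3.09e-06). The KO libraries stood at 181.7 and 203.5 CPM against 39.9 and 52.5 CPM in their controls, and the CBE libraries at 37 and 48.9 CPM against 40.4 and 58.2 CPM. BCL2 differed between the edits by −0.62 (edgeR adjusted p 0.00439), with values below the controls in both KO libraries and overlapping them with CBE.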

How the results depend on the processing

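Of the members, 4 of 10 passed with KO, and leaving out single libraries gave from 2 to 4. With CBE 2 of 10 passed, and the number was 1 with no replicate block and 1 with only the 4 libraries of the contrast, while leaving out single libraries gave from 1 to 2. For the difference between edits 2 passed, with 1 without the replicate block and from 1 to 2 when single libraries were left out. Between line labels 1 passed, with 4 under DESeq2 and 2 with the legacy dispersion. The block changed no other call of a member beside those of BBC3 and BCL2 already given. With the block left out, 503 of all genes differed between edits instead of 767. Over all genes, KO calls ranged from 677 to 4150 around 2108, CBE calls from 586 to 3351 around 2124, average calls from 1639 to 4863 around 2958, differences from 226 to 2205 around 767 and line calls from 26 to 715 around 119. DESeq2 called 35 genes between the controls and 68 for the difference between lines, where edgeR called 0 (2 with the legacy dispersion for the latter). No member that passed changed sign in any alternative, and the cause of lost calls was not tested. Without TMM the median of all genes was −0.17 with KO and −0.15 with CBE, so directions are relative to TMM scaling. BCL2A1 had from 0 to 94 counts per library.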
